A study of Homo sapiens with 24 samples.

Results

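The genes described here are 44 nucleolar ribosome biogenesis factors, proteins that modify, cut, fold and package ribosomal RNA in the nucleolus before the subunits leave the nucleus. They were taken by symbol from the deposited table of counts per gene, which holds 60668 rows, and all 44 were found, each in 1 row, and all 44 were among the 22158 genes with enough counts to be tested. The table covers 24 poly(A)-selected, strand-specific RNA-seq libraries of MCF-10A, an immortalised and non-tumorigenic human mammary epithelial line, grown in 3 dimensions on Matrigel. The parental line, labelled wild-type, was compared with MCF-10A MYC-ER, which carries the transcription factor MYC joined to the hormone-binding region of an oestrogen receptor. Each line was collected without 4-hydroxytamoxifen (4-OHT, 0 h) and after 8, 24 and 48 h in 1 µM 4-OHT, the ligand that frees the fusion protein to act, with 3 replicates in each of the 8 groups. All cultures were collected together on day 5, so the 0 h groups are untreated cultures of the same age. The labels give neither the promoter that drives the fusion, nor whether the MYC-ER line is 1 clone, nor whether a vehicle was added at 0 h. They name triplicate wells, so the spread between replicates may be that between wells of 1 experiment.

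A ribosome is assembled from a long precursor RNA, transcribed by RNA polymerase I, and from 5S RNA and ribosomal proteins. Small nucleolar RNAs in box C/D and box H/ACA particles guide its 2′-O-methylation and pseudouridylation. The small-subunit processome, which starts with the UtpA subcomplex, folds and cuts the 18S part, and a separate set of factors that includes the PeBoW complex matures the large subunit. MYC is known as a regulator of this programme in many cell types, partly through binding with MAX to the E-box CACGTG near gene starts.

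The E-box was looked for in the members' promoters because the line carries an inducible MYC. RefSeq promoter entries (GRCh38.p14, from 250 bases before to 50 after each annotated start) were found for 36 of the 44 genes, 8 of which had 2 starts, giving 44 entries. CACGTG, which reads the same on both strands, was in 20 of the 44 entries (45.5%), belonging to 19 genes, and in 7.26% of all 35116 promoter entries of the same length (8.34% of 22199 entries of protein-coding genes). The variant CACGCG, or CGCGTG on the other strand, was in 11 of the 44 entries, against 11.4% of all entries. Of the 21 copies of CACGTG in member entries, 18 (85.7%) began within 50 bases of the start, against 36.9% of the 2821 copies in all entries, and 12 lay after the start. The 100 bases before the start are shown for 6 genes with the E-box there, from 4 roles, and for NPM1, whose window holds the variant and which followed a different time course. Capitals mark the motif.
LYAR: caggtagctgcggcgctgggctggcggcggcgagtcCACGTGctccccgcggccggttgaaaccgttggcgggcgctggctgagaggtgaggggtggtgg
UTP20: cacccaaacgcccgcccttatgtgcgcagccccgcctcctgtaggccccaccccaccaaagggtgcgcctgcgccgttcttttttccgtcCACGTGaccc
UTP4: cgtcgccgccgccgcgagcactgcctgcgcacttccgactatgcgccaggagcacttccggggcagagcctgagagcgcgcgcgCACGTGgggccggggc
DDX21: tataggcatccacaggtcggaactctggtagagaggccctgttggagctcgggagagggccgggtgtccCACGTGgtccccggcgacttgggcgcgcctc
NAT10: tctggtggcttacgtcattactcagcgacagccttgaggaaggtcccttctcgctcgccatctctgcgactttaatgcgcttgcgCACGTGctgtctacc
NOP10: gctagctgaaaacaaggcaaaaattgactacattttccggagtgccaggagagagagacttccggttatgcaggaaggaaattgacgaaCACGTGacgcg
NPM1: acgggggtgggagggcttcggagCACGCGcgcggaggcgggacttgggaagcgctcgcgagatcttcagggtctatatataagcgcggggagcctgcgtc

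These windows are chr4:4290022-4290121 for LYAR and chr15:34343137-34343236 for NOP10, both on the minus strand. On the plus strand they are chr12:101280005-101280104 for UTP20, chr16:69132549-69132648 for UTP4, chr10:68956547-68956646 for DDX21, chr11:34105529-34105628 for NAT10 and chr5:171387749-171387848 for NPM1. The first base of the motif lay 64 bases before the start in LYAR, 31 in DDX21, 16 in UTP4, 15 in NAT10, 11 in NOP10 and 10 in UTP20, and 77 in NPM1. A match to these letters is a description of the sequence and does not show binding. The 19 genes with the E-box and the 17 with an entry but no E-box had overlapping responses: the log2 change 8 h after 4-OHT in MYC-ER cells was 0.97 to 3.32 with a median of 1.37 in the first set, and 0.44 to 1.94 with a median of 1.33 in the second. The 8 genes without an entry are BOP1, DDX18, NOLC1, NOP58, RRP12, RRS1, TCOF1 and URB2.

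Some of the genes share features of position. In the GENCODE 29 annotation (GRCh38), 8 of the 44 hold snoRNA genes within them, 26 in all: NOP56 and GNL3 hold 5 each, NOP58 holds 4, NCL and WDR43 hold 3 each, and DKC1, PPAN and TSR1 hold 2 each. Exons of 16 members overlap exons of a gene on the opposite strand and 10 overlap another gene on the same strand. Whether the counting used strand is not given in the sources used here, so the counts of the members in such overlaps are uncertain. This applies most to PPAN (ENSG00000130810.20, chr19:10106289-10111634), whose exons are shared with the read-through gene PPAN-P2RY11 and with P2RY11. It also applies to WDR74, which overlaps RNU2-2P and TEX54, to GRWD1, which overlaps KCNJ14, to NOP14 with NOP14-AS1, and to TSR1 with SGSM2 and SRR. NPM1 has processed pseudogenes of nearly the same sequence, and how reads that match several places were treated is not given.

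Library totals ran from 136860029 to 182438505 counts. Markers of basal mammary epithelium were present throughout (KRT5 between 7474 and 13320 CPM in every library, where CPM are counts scaled to a common library total). KRT14 (605 to 10400 CPM) and LAMB3 (151 to 1685 CPM) varied more. Of the luminal markers, KRT8 (40.3 to 248 CPM), KRT18 (91.5 to 482.5 CPM), GATA3 (7.62 to 19.6 CPM) and FOXA1 (0.140 to 3.41 CPM) were also in every library. KRT19 had 0 counts in 1 library and ESR1 in 2. The luminal marker PGR had 0 counts in all 24, a count that allows a level of up to 0.0219 CPM in the library of lowest depth. Leukocyte markers summed to at most 0.0628 CPM in any library. The 4 endothelial markers summed to 0.0930 to 0.244 CPM in MYC-ER libraries at 0 h, to 1.97 to 2.54 CPM at 8 h, to between 0.333 and 0.653 CPM at 24 and 48 h, and to 1.04 to 2.90 CPM in parental libraries. Of these, CDH5 had 0 counts in all 24 and PECAM1 was detected in each. The MYC-ER 0 h libraries, the reference for each MYC-ER time, stood apart on other measures. Mitochondrial transcripts took 9.24% to 9.71% of their counts and 3.86% to 7.78% in the others. The sum of 5 fibroblast markers was 361 to 378 CPM there and 76.3 to 144 CPM in the other groups. It came mostly from COL1A1 and DCN, while COL1A2 had 0 counts in 22 libraries and COL3A1 in 23. Luminal markers summed to 230 to 243 CPM in MYC-ER at 0 h, 578 to 611 CPM at 8 h, 425 to 431 CPM at 24 h and 493 to 517 CPM at 48 h, and to 263 to 400 in parental libraries, and basal markers to 11090 to 15070 CPM in MYC-ER and 18650 to 27990 in parental libraries. The part of these differences in the results below was not tested.

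MYC itself was read in both lines. In MYC-ER libraries it was at 394, 378 and 388 CPM at 0 h, 795, 793 and 797 at 8 h, and had a mean of 321 at 24 h and 248 at 48 h. The parental group means were 463 to 532 CPM. By edgeR's quasi-likelihood test (Benjamini-Hochberg adjusted p under 0.05), MYC was higher in MYC-ER than in parental cells at 8 h (log2 difference 0.78). It was lower at 0 h (-0.46), 24 h (-0.66) and 48 h (-1.08). Where reads of the fusion were counted under MYC, they cannot be told apart from those of the cell's own gene.

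The first comparison asks what follows activation of the fusion. All 44 factors were higher 8 h after 4-OHT in MYC-ER cells (edgeR's quasi-likelihood test, Benjamini-Hochberg adjusted p under 0.05), where 32.2% of all genes tested were called higher and 35.4% lower. The median log2 change of the 44 was 1.37, against -0.10 over all genes tested. Of the 44, 38 were called with a rise of at least 2-fold. Among all 22158 genes tested, 3353 were called with such a rise and 4340 with such a fall. In each of the 44 the highest 0 h library lay below the lowest 8 h library. The share of all genes separated in this way was not counted. Together the 44 genes took 4588 ± 163 CPM at 0 h and 10899.7 ± 175 CPM at 8 h (SD, n = 3), then 9254 ± 220 CPM at 24 h and 5811 ± 82.8 CPM at 48 h. CPM is a share of a library's counts, so these values do not give RNA per cell, and in bulk cultures a change in the share of cells that express a gene cannot be told apart from a change of RNA within them.

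**Figure D1:**
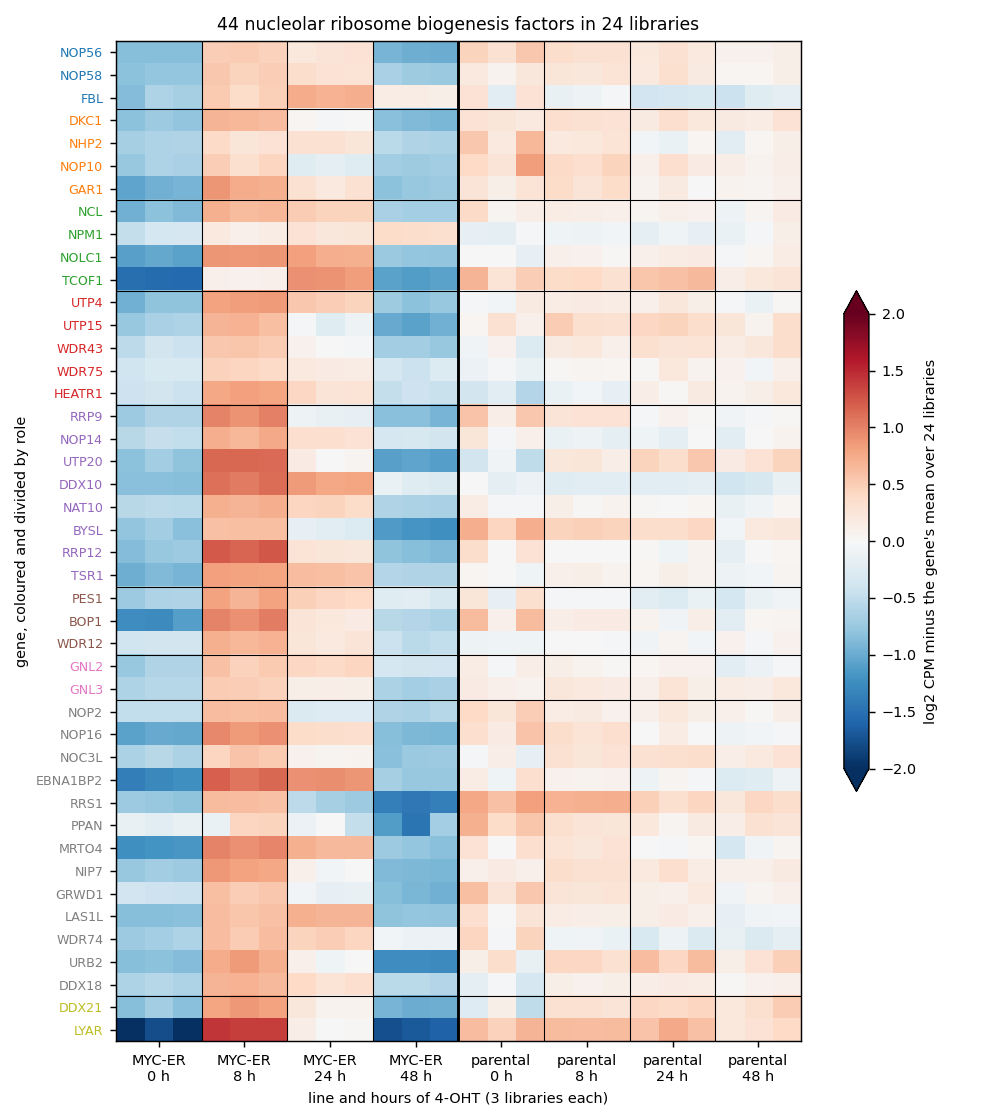
Values of the 44 genes in each of the 24 libraries, as log2 CPM minus the gene's own mean over all libraries (colour scale from -2 to 2, darker beyond), with rows divided by role and columns by line and hours of 4-OHT. MYC-ER at 0 h and 48 h is mostly blue and MYC-ER at 8 h mostly red, and the parental columns vary less. Of the 44 genes, 40 were highest among MYC-ER groups at 8 h, 3 at 24 h and NPM1 at 48 h. The peak times of all genes were not counted.

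In the box C/D particle, which carries out 2′-O-methylation, the scaffold proteins NOP56 and NOP58 and the methyltransferase FBL (fibrillarin) all rose. NOP56 (ENSG00000101361.17) was at 130.0, 129.8 and 130.2 CPM at 0 h and 328, 332 and 323 CPM at 8 h in MYC-ER cells, a log2 change of 1.33 (adjusted p 7.24e-16, SE 0.05), the largest of the group. NOP56 then stood at 270.4, 278 and 287 CPM at 24 h and 123, 118 and 118 CPM at 48 h, where it no longer differed from 0 h (-0.12, adjusted p 0.0569). NOP58 followed the same order, with means of 52.8, 129, 113 and 56.3 CPM over the 4 times. FBL (ENSG00000105202.9) did not: it was at 96.8, 115 and 112 CPM at 0 h, 255, 228 and 248 at 8 h, 296, 288 and 293 at 24 h and 196, 197 and 193 at 48 h. All 3 of its 24 h libraries lay above its 8 h libraries, with a log2 change between these times of 0.26 (adjusted p 0.0234, SE 0.095). FBL and TCOF1 were the 2 members called higher between these times, and FBL had the larger adjusted p. Only 1 member was called higher with no filter on low counts or with GC and length trends removed. The same held without MYC-ER 8 h replicate 2, MYC-ER 24 h replicate 1 or MYC-ER 24 h replicate 3. FBL was also still above 0 h after 48 h (0.86 (adjusted p 2.00e-07, SE 0.096)), the largest value of the 44 at that time.

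The box H/ACA particle, which makes pseudouridine and shares DKC1, NHP2, NOP10 and GAR1 with telomerase, rose as a whole. GAR1 rose most of the 4, from 8.63, 9.23 and 9.46 CPM to 33.2, 30.3 and 29.5 CPM at 8 h, a log2 change of 1.77 (adjusted p 4.54e-16, SE 0.065). NHP2 rose least, from 78.8, 82.1 and 82.8 CPM to 164, 149 and 153 CPM, or 0.94 (adjusted p 4.88e-09, SE 0.089). The pseudouridine synthase DKC1 went from 73.2 ± 2.45 to 198 ± 3.96 CPM (SD, n = 3) and NOP10 from 38.3 ± 1.97 to 81.7 ± 4.57 CPM. By 24 h the 4 had separated, with NHP2 still at 152 CPM, near its 8 h mean of 155 (-0.028, adjusted p 0.816), while NOP10 had fallen to 52.4 and DKC1 to 126 CPM. At 48 h GAR1 alone of the 4 was called above 0 h (0.22, adjusted p 0.00803), and NHP2, NOP10 and DKC1 had log2 changes of 0.037, -0.02 and -0.095, none past the threshold.

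The 4 nucleolar phosphoproteins and chaperones differed in their time courses: NOLC1 and NCL were highest at 8 h in MYC-ER cells, TCOF1 at 24 h and NPM1 at 48 h. NOLC1, a chaperone of snoRNPs, rose most at 8 h, from 153, 159 and 155 CPM to 601, 592 and 596 CPM, a log2 change of 1.94 (adjusted p 3.51e-18, SE 0.053). NOLC1 was still at 571, 538 and 530.3 CPM at 24 h. NCL (nucleolin, which binds pre-rRNA) was at 522, 579 and 553 CPM at 0 h, 1662, 1578 and 1615 at 8 h, 1447, 1389.8 and 1385 at 24 h and 648, 635 and 635 at 48 h. Per kilobase of transcript NCL was second among the 44 at 8 h, at 401 CPM per kb, after NPM1 at 1206 CPM per kb.

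TCOF1 (treacle, which binds RNA polymerase I and is mutated in Treacher Collins syndrome) was highest at 24 h. Its MYC-ER libraries held 58.0, 56.7 and 56.6 CPM at 0 h, 177, 176 and 178 at 8 h, 313, 309 and 295 at 24 h and 78.7, 76.4 and 78.6 at 48 h. The groups did not overlap between any of these times, and the log2 change was 0.79 (adjusted p 1.24e-09, SE 0.066) from 8 to 24 h and -1.97 (adjusted p 9.29e-16, SE 0.068) from 24 to 48 h. The last was the largest fall of the 44 between those times. NPM1 (nucleophosmin, a histone and ribosomal protein chaperone, ENSG00000181163.13, chr5:171387116-171411137) was the 1 gene of the 44 without a called fall between successive times. It was at 1381, 1507 and 1513 CPM at 0 h, 2186, 2056 and 2120.0 at 8 h, 2350.1, 2245 and 2275 at 24 h and 2466, 2441 and 2378 at 48 h. Against 0 h it had a log2 change of 0.53 (adjusted p 1.06e-07, SE 0.062) after 8 h and 0.73 (adjusted p 2.80e-09, SE 0.062) after 48 h, while the steps from 8 to 24 h (0.11, adjusted p 0.134) and from 24 to 48 h (0.084, adjusted p 0.262) did not pass the threshold.

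**Figure D2:**
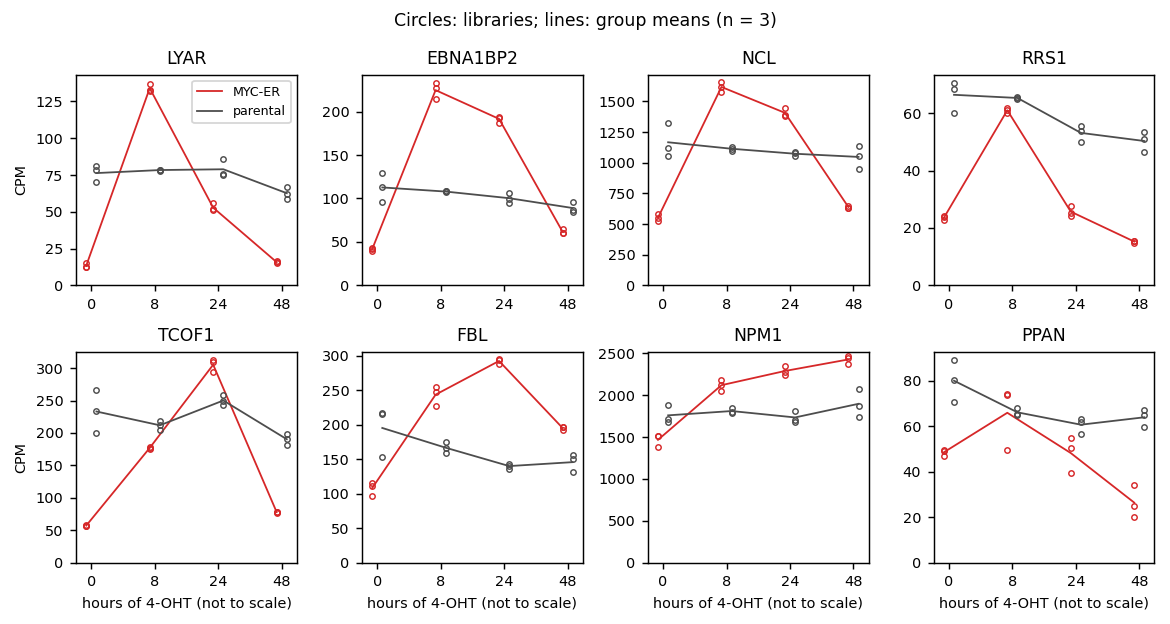
CPM of 8 genes by line (MYC-ER red, parental grey) and hours of 4-OHT, with circles for libraries and lines through group means of 3. LYAR, EBNA1BP2, NCL and RRS1 peak at 8 h in MYC-ER cells, TCOF1 and FBL at 24 h, and NPM1 is highest at 48 h; PPAN varies most between replicates, with 1 of its 8 h libraries at 49.5 CPM and the other two near 74.

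UtpA is the first subcomplex to join the nascent small-subunit precursor and is linked to transcription of ribosomal DNA. The 5 of its subunits among the 44 rose by 0.77 to 1.68 on the log2 scale at 8 h. UTP4 (cirhin) rose most, from 32.8, 36.5 and 36.7 CPM to 112, 113 and 115 CPM (1.68 (adjusted p 3.85e-16, SE 0.061)). WDR75 rose least, from 47.8, 50.9 and 51.0 CPM to 86.9, 85.4 and 82.6 CPM (0.77 (adjusted p 2.68e-11, SE 0.054)). The means of UTP15 went from 16.9 to 42.6 CPM, of WDR43 from 59.9 to 118 CPM and of HEATR1 from 190.1 to 436 CPM. At 48 h none of the 5 was called above 0 h, and UTP15 (-0.34, adjusted p 0.00115) and WDR43 (-0.28, adjusted p 0.00211) were below it.

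Of the 8 other small-subunit factors, RRP12 rose most and NOP14 least at 8 h. RRP12, which acts in export and late maturation of pre-ribosomes, went from 43.8, 46.9 and 48.2 CPM to 186, 179 and 188 CPM (1.99 (adjusted p 5.75e-16, SE 0.074)). NOP14 went from 84.1, 90.1 and 88.4 CPM to 205, 197 and 209 CPM (1.22 (adjusted p 7.19e-13, SE 0.069)). The processome scaffold UTP20 rose by 1.92, the helicase DDX10 by 1.92, the late pre-40S factor TSR1 by 1.73 and the U3 snoRNP protein RRP9 by 1.61 on the log2 scale. BYSL (bystin) rose by 1.37 and the RNA acetyltransferase NAT10 by 1.25.

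All 8 were called lower at 24 h than at 8 h, by different amounts. DDX10 and TSR1 fell by 0.28 and 0.20 on the log2 scale, with means of 81.9 CPM against 99.2 at 8 h and 221 against 255 CPM. With library size alone these 2 changes were -0.071 and 0.0012, and neither was called. RRP9, UTP20 and RRP12 fell by 1.11, 1.06 and 0.96 on the log2 scale between 8 and 24 h. RRP9 was at 40.1, 38.7 and 38.4 CPM at 24 h, against 85.8, 80.2 and 86.9 CPM at 8 h. At 48 h DDX10 (0.62, adjusted p 9.98e-09) and TSR1 (0.34, adjusted p 1.64e-06) were called above 0 h and BYSL (-0.41, adjusted p 6.61e-05), UTP20 (-0.31, adjusted p 0.00511) and RRP9 (-0.23, adjusted p 0.0198) below it.

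The PeBoW complex, which is needed for cleavage of the large-subunit precursor, consists of PES1, BOP1 and WDR12. BOP1 rose most, from 53.3, 51.7 and 58.3 CPM to 250.4, 238 and 255 CPM (2.18 (adjusted p 4.21e-14, SE 0.1)). WDR12 rose least, from 47.2, 48.0 and 48.0 CPM to 102, 98.4 and 101 CPM (1.07 (adjusted p 1.95e-15, SE 0.043)). PES1 went from 99.6 ± 4.56 to 265 ± 12.4 CPM (SD, n = 3). At 48 h PES1 (0.39, adjusted p 0.00101) and BOP1 (0.62, adjusted p 2.93e-05) were above 0 h while WDR12 was below it (-0.11, adjusted p 0.045).

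The nucleolar GTPases GNL2 and GNL3 (nucleostemin) rose by close amounts. GNL2 went from 43.4, 48.7 and 48.4 CPM to 111, 102 and 106 CPM (1.18 (adjusted p 4.12e-14, SE 0.056)) and GNL3 from 77.4, 79.6 and 79.2 CPM to 167, 166 and 162 CPM (1.07 (adjusted p 3.66e-15, SE 0.044)). GNL2 stayed at 97.9 CPM at 24 h, and GNL3 fell to 129 CPM.

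The 13 other large-subunit factors all rose at 8 h, by 0.44 to 2.44 on the log2 scale. EBNA1BP2 rose most, from 39.0, 41.9 and 43.5 CPM to 233, 214 and 227 CPM (2.44 (adjusted p 8.40e-17, SE 0.08)), and was at 193, 194 and 187 CPM at 24 h. MRTO4, which holds the place of the stalk protein P0 in the precursor, rose by 2.16 and NOP16 by 1.94. URB2, NIP7, LAS1L, RRS1, DDX18 and WDR74 rose by 1.62, 1.53, 1.43, 1.37, 1.27 and 1.26. NOC3L, the rRNA methyltransferase NOP2 and the histone-binding GRWD1 rose by 1.11, 1.10 and 0.95.

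PPAN had the smallest and least certain response. It was at 49.2, 46.9 and 49.4 CPM at 0 h and 49.5, 73.9 and 74.4 CPM at 8 h, so that 1 of the 8 h libraries lay just above the 0 h libraries, and the log2 change was 0.44 (adjusted p 0.0172, SE 0.16). That call was lost without MYC-ER 0 h replicate 2, MYC-ER 8 h replicate 2 or MYC-ER 8 h replicate 3 (adjusted p 0.0509 to 0.088), and with library size alone (adjusted p 0.0534) or upper-quartile scaling (adjusted p 0.0955). PPAN was then at 50.5, 54.8 and 39.3 CPM at 24 h and 25.1, 19.9 and 34.2 CPM at 48 h, the last a log2 change of -0.88 (adjusted p 1.02e-04, SE 0.16) from 0 h. The read-through gene that shares its exons leaves the split of these counts uncertain.

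RRS1, which helps bring 5S RNA into the large subunit, rose at 8 h and had lost the rise by 24 h. Its libraries held 24.0, 23.7 and 22.9 CPM at 0 h, 61.9, 61.1 and 60.2 at 8 h, 27.7, 25.2 and 24.2 at 24 h and 15.5, 14.8 and 15.6 at 48 h. The log2 change at 24 h, 0.13 (adjusted p 0.0813, SE 0.062), missed the threshold, and passed it with DESeq2 size factors, library size alone, the DESeq2 test, the GC trend removed, the 0 h and 24 h libraries fitted alone, or without MYC-ER 24 h replicate 3 (0.15 to 0.24). LAS1L, which takes part in cutting the spacer between 5.8S and 28S RNA, was at 75.3, 72.4 and 74.4 CPM at 8 h and 81.2, 78.7 and 78.9 CPM at 24 h, a step that did not pass the threshold (0.10, adjusted p 0.118), and then fell to 28.3, 28.7 and 28.4 CPM.

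LYAR and DDX21 act in both transcription and processing of ribosomal RNA. LYAR (ENSG00000145220.14, chr4:4267701-4290169) showed the largest rise of the 44 at 8 h: it went from 12.8, 14.9 and 12.7 CPM to 137, 133 and 132 CPM, a log2 change of 3.32 (adjusted p 2.07e-19, SE 0.075), or 9.96-fold. LYAR fell to 55.7, 51.1 and 51.6 CPM at 24 h and to 14.9, 15.8 and 16.5 CPM at 48 h, still above 0 h (0.23, adjusted p 0.0108). The helicase DDX21 went from 200.5, 221 and 202 CPM to 625, 654 and 627 CPM (1.61 (adjusted p 5.33e-12, SE 0.1)) and was at 189, 180.2 and 183 CPM at 48 h, where its replicates stood below those of 0 h without passing the threshold (-0.18, adjusted p 0.166).

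Over the whole course in MYC-ER cells, the rise at 8 h was followed by a fall. At 24 h 42 of the 44 were still called above 0 h (30.4% of all genes were called higher and 31.2% lower), with a median log2 change of 0.92 against -0.02 over all genes, and PPAN (-0.0097) and RRS1 were the 2 that were not. Between 8 and 24 h 37 fell, 2 rose (FBL and TCOF1) and 5 did not pass the threshold (NHP2, NPM1, GNL2, WDR74 and LAS1L), where 27.1% of all genes were called lower and 28.4% higher. Under scaling by library size alone instead of TMM, which moved the median of all genes from 0.050 to 0.26, these counts were 24 lower and 5 higher. Over all 22158 genes, 4078 were called lower and 8595 higher with that scaling. Between 24 and 48 h 43 fell, with a median log2 change of -0.89 (25.5% of all genes were called lower and 28.2% higher), and NPM1 was the exception.

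At 48 h the 44 genes had a median log2 change of 0.015 from 0 h, with 15 called higher and 12 lower, where 23.4% of all genes were called higher and 20.7% lower. The 15 were the 4 phosphoproteins and chaperones, FBL, GAR1, DDX10, TSR1, PES1, BOP1, GNL2, EBNA1BP2, MRTO4, WDR74 and LYAR. The 12 were UTP15, WDR43, RRP9, UTP20, BYSL, WDR12, NOC3L, RRS1, PPAN, NIP7, GRWD1 and URB2. This split moved with the scaling. With library size alone, which moved the median of all genes from 0.029 to 0.19, 23 were called higher and 4 lower, and the change of WDR12 turned positive (0.055). Over all 22158 genes, 7212 were called higher and 2557 lower with that scaling. For 22 of the 44 genes the lowest MYC-ER group was 48 h, and for the other 22 it was 0 h. The lowest group was not counted over all genes.

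**Figure D3:**
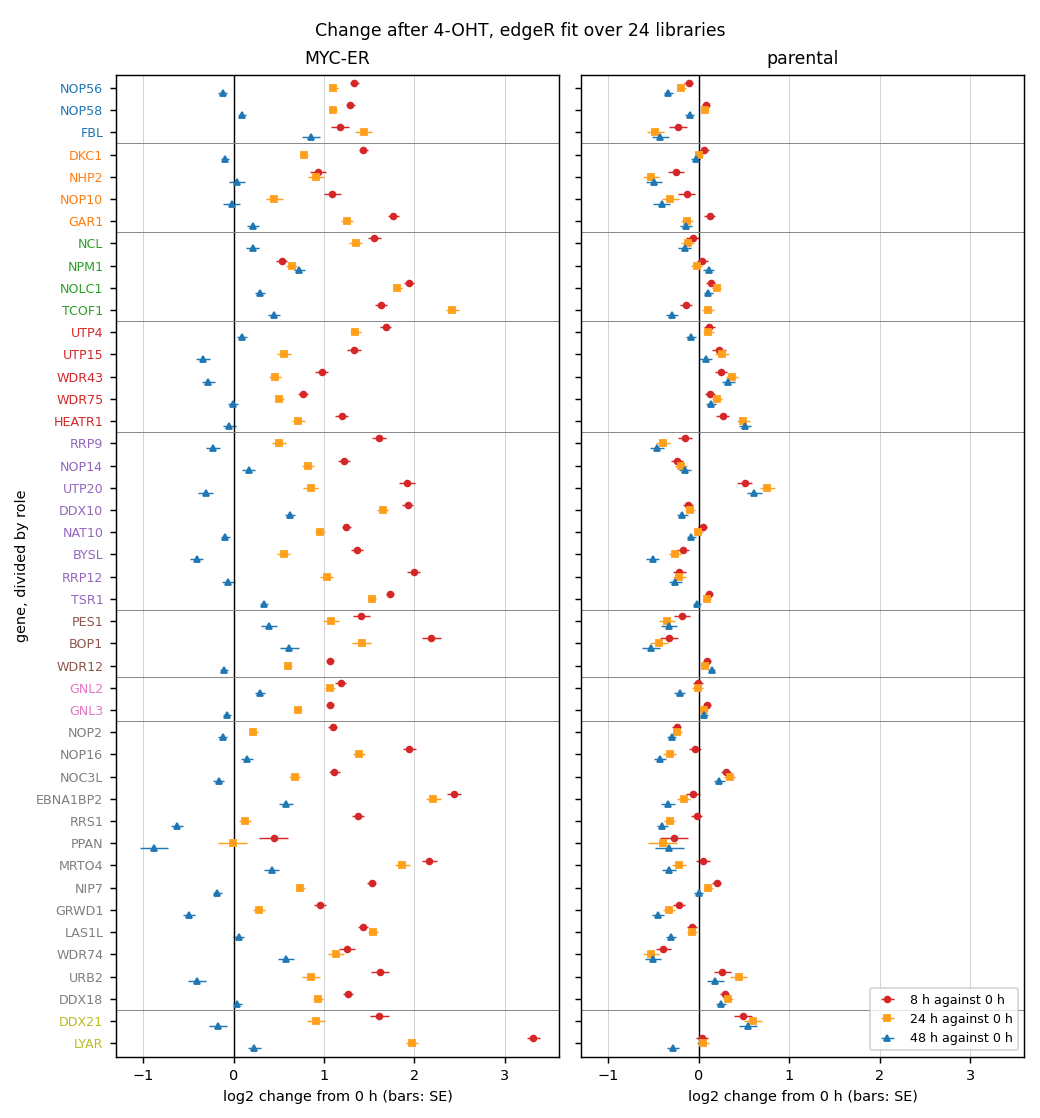
Log2 change from 0 h of the 44 genes after 8 h (red circles), 24 h (orange squares) and 48 h (blue triangles) of 4-OHT in MYC-ER (left) and parental cells (right), with bars for the standard error and rows divided by role. In MYC-ER cells all 8 h points lie right of 0 and the 48 h points lie on both sides, whereas the parental points run from -0.53 to 0.76.

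The parental line, which lacks the fusion, was given 4-OHT on the same schedule. Of the 44 genes, 9 were called higher and 7 lower at 8 h, 10 higher and 17 lower at 24 h, and 8 higher and 21 lower at 48 h. Over all genes tested the shares were 15.0% higher and 16.0% lower at 8 h, 21.2% and 21.7% at 24 h, and 20.4% and 20.1% at 48 h. The members' shares were thus near those of all genes at 8 h, and the share of lower genes was above them at 24 and 48 h. No member changed 2-fold. Among all genes, 239, 416 and 393 were called with such a rise at the 3 times, and 244, 465 and 188 with such a fall. The medians of the members were 0.015, -0.050 and -0.17, against -0.0016, -0.028 and -0.0016 over all genes. The summed level of the 44 was 7771 ± 395 CPM in untreated parental cultures, 7814 ± 31.6 CPM at 8 h, 7648 ± 127 CPM at 24 h and 7497 ± 530.5 CPM at 48 h (SD, n = 3).

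UTP20 rose most in parental cells, from 41.4, 50.9 and 37.6 CPM in untreated cultures to 62.6, 63.6 and 58.8 CPM at 8 h, 73.3, 68.5 and 78.2 CPM at 24 h and 60.4, 65.3 and 73.1 CPM at 48 h, a log2 change of 0.76 (adjusted p 1.17e-06, SE 0.084) at 24 h. DDX21 was at 300.0, 390.4 and 254 CPM at 0 h and 480.0, 468 and 484 CPM at 24 h (0.60 (adjusted p 6.83e-05, SE 0.1)). HEATR1 was at 195, 218 and 166 CPM and 275, 255 and 285 CPM at these times (0.49 (adjusted p 1.64e-05, SE 0.07)). FBL was at 216, 153 and 217 CPM at 0 h, where replicate 2 stood apart, and 136, 140.3 and 143 CPM at 24 h (-0.48 (adjusted p 3.61e-04, SE 0.096)). NHP2 was at 182, 143 and 199 CPM and 121, 114 and 129 CPM (-0.53 (adjusted p 7.20e-05, SE 0.089)). For FBL, NHP2, BOP1, RRP12 and WDR74 replicate 2 was the lowest of the parental 0 h libraries, and for DDX21, HEATR1, UTP20 and URB2 it was the highest. Without that library 17 members were called lower at 8 h, and without replicate 1 of the same group 2 were. Over all genes tested, 4480 of 22783 were called lower in the first of these fits and 2551 of 22751 in the second. The SE and adjusted p values of the genes named here rest on the spread pooled over the 24 libraries, not on that of the parental 0 h group alone.

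The direction in parental cells went with base composition. Across the 44 genes, which are not independent and share their libraries, Spearman's rho between the GC content of the transcript and the log2 change was -0.79 for the 8 h contrast, -0.777 for 24 h and -0.797 for 48 h. UTP20, DDX21 and HEATR1 have a GC content of 42.3%, 41.1% and 41.5%, and FBL, NHP2 and BOP1 of 57.9%, 57.1% and 65.2%. In MYC-ER cells the same values were 0.121, 0.0818 and 0.0433. Between the lines rho was -0.571 for the 0 h contrast, and -0.0593, 0.0997 and -0.00839 for those of 8, 24 and 48 h, and for the interactions it was 0.445, 0.436 and 0.428. The contrasts with the larger values are thus those that use the parental 0 h libraries. These 3 libraries also differed most among themselves, with a chi-square per degree of freedom of 159 to 261 between pairs of replicates, against 8.45 to 63.3 in the other 7 groups. The part of this in the parental calls was not tested. With each library's trend on GC content removed, the parental calls were 3 higher and 3 lower at 8 h, 7 and 8 at 24 h, and 3 and 24 at 48 h. Over all 22158 genes, the same fit called 2638 higher and 2487 lower at 8 h, 4222 and 3433 at 24 h, and 3583 and 3701 at 48 h. UTP20 then had log2 changes of 0.38, 0.58 and 0.42 and kept its direction. Of the 6 genes called higher at all 3 parental times (DDX18, DDX21, HEATR1, NOC3L, UTP20 and WDR43), NOC3L was at -0.0093 at 24 h and -0.15 at 48 h with the trend removed and DDX18 at -0.054 at 48 h. When the 2 groups of a contrast were fitted alone, the parental calls were 1 higher and 0 lower at 8 h, 7 and 5 at 24 h, and 3 and 9 at 48 h. The log2 changes themselves stayed close, with a range at 8 h of -0.39 to 0.51 in both fits and a median at 48 h of -0.16 against -0.17. Calls over all genes fell as well, from 3319 higher and 3551 lower at 8 h to 628 and 824.

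**Figure D4:**
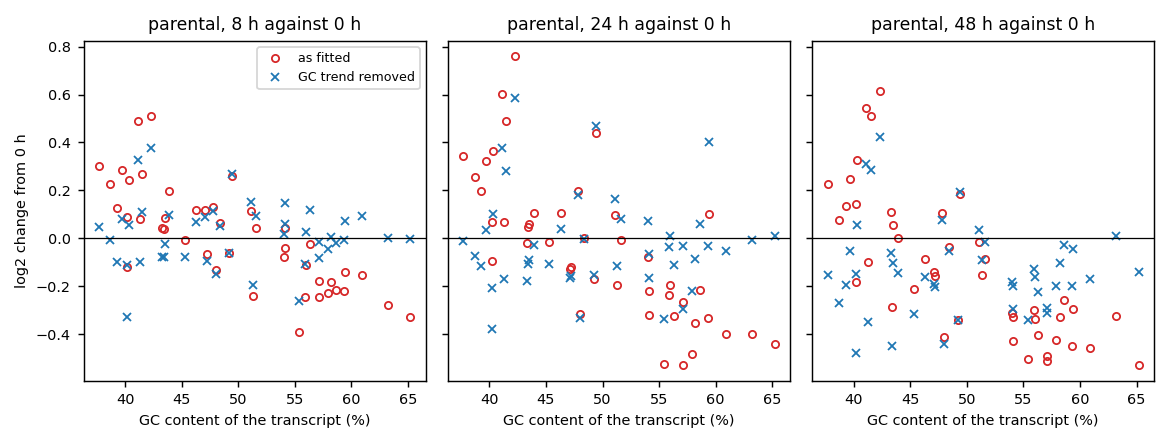
Log2 change from 0 h in parental cells after 8, 24 and 48 h of 4-OHT against the GC content of each gene's transcript, for the 44 genes, as fitted (red circles) and with each library's GC trend removed (blue crosses). The red points slope down from left to right at each time, with Spearman's rho of -0.777 to -0.797, and the blue points do not, with rho of -0.0196 to 0.0491. The removal takes out the trend on GC content itself, so this loss of slope follows largely from it. The cause of the slope was not tested.

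The lines stood apart before 4-OHT was given. In untreated cultures 43 of the 44 genes were lower in the MYC-ER line than in the parental line and none was higher, where 32.7% of all genes were called lower and 31.6% higher. The median log2 difference was -0.90. LYAR differed most, at 12.8, 14.9 and 12.7 CPM in MYC-ER and 78.1, 69.9 and 80.9 CPM in parental libraries (-2.50 (adjusted p 1.07e-17, SE 0.072)). TCOF1 was at 58.0, 56.7 and 56.6 CPM and 266, 200.1 and 233 CPM (-2.03 (adjusted p 1.47e-16, SE 0.069)), and BOP1 at 53.3, 51.7 and 58.3 CPM and 196, 135 and 195 CPM (-1.69 (adjusted p 3.79e-12, SE 0.1)). NPM1 differed little, at 1381, 1507 and 1513 and 1717, 1685 and 1878 CPM (-0.26 (adjusted p 7.81e-04, SE 0.062)). HEATR1, the exception, overlapped between the lines (189, 194 and 187 CPM against 195, 218 and 166 CPM, -0.022 (adjusted p 0.803, SE 0.07)), and was called lower with the GC trend removed (-0.19, adjusted p 0.00694). As given above, mitochondrial and fibroblast-marker transcripts were also higher in the MYC-ER 0 h libraries than elsewhere, and their part in this difference was not tested.

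After 8 h the order of the lines was turned around for most of the genes. Of the 44, 38 were higher in MYC-ER than in parental cells at 8 h and 1, TCOF1, was lower (-0.26), with a median of 0.51, where 23.1% of all genes were called higher and 25.5% lower. NHP2, NOP10, BYSL, RRS1 and PPAN did not pass the threshold. DDX10 stood furthest above, at 100.3, 96.1 and 101 CPM in MYC-ER and 39.7, 40.4 and 40.1 CPM in parental libraries (1.31 (adjusted p 4.59e-14, SE 0.058)), followed by RRP12 (1.20) and EBNA1BP2 (1.06). RRS1, in contrast, was at 61.9, 61.1 and 60.2 and 65.0, 65.2 and 65.8 CPM (-0.10, adjusted p 0.199).

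At 24 h 23 were higher and 14 lower in the MYC-ER line than in the parental line, where 23.5% of all genes were called higher and 25.8% lower, so the share of lower genes was not far from that of all genes. FBL (1.06), DDX10 (1.01) and EBNA1BP2 (0.93) were furthest above and RRS1 (-1.05), BYSL (-0.59) and LYAR (-0.58) furthest below. At 48 h 39 were lower and 2 higher, with a median of -0.79, where 29.4% of all genes were called lower and 27.3% higher. The 2 were FBL, at 196, 197 and 193 CPM against 131, 149.6 and 156 CPM (0.42 (adjusted p 6.99e-04, SE 0.096)), and NPM1, at 2466, 2441 and 2378 CPM against 1743, 1871 and 2079.9 CPM (0.36 (adjusted p 4.00e-05, SE 0.062)). DDX10, PES1 and WDR74 did not pass the threshold. LYAR (-1.99) and RRS1 (-1.72) were furthest below.

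Set against the full range of the parental line, all 3 MYC-ER 8 h libraries exceeded all 12 parental libraries for 35 of the 44 genes (16.0% of all genes), and all 3 MYC-ER 24 h libraries did so for 18 (16.0%). All 3 MYC-ER 0 h libraries lay below all 12 parental libraries for 43 genes (24.0% of all genes) and all 3 MYC-ER 48 h libraries for 38 (22.4%). These counts use the same libraries as the comparisons of the lines above and describe their separation.

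The interaction tests whether the change from 0 h differed between the lines. At 8 h the change in MYC-ER cells was above that in parental cells for all 44 genes, with a median of 1.40, where 27.3% of all genes were called in that direction and 27.8% in the other. LYAR had the largest value (3.28 (adjusted p 1.10e-16, SE 0.099)) and NPM1 the smallest (0.49 (adjusted p 5.28e-05, SE 0.087)). At 24 h 39 were called and all were positive (27.7% of all genes were called positive and 26.8% negative), with EBNA1BP2 (2.38 (adjusted p 6.78e-14, SE 0.11)) and TCOF1 (2.32) the largest. The 5 not called were WDR43, HEATR1, UTP20, DDX21 and PPAN, and the first 4 of these also rose in parental cells at 24 h. At 48 h 23 were positive and 12 negative (23.6% and 21.4% of all genes), from 1.28 for FBL to -0.92 for UTP20. With the GC trend removed the counts at 48 h were 17 positive and 8 negative, and with library size alone 27 and 7.

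Another 98 genes of ribosome biogenesis and snoRNP assembly outside the 44 were listed, and all were tested. At 8 h in MYC-ER cells 94 rose and 1 fell, where 32.2% of all genes were called higher and 35.4% lower. The median log2 change of the 98 was 1.02. By list, 44 of 45 small-subunit factors, 41 of 42 large-subunit factors and 9 of 11 snoRNP assembly factors rose. The largest rises were in RRP7A, from 22.2, 22.3 and 23.0 CPM to 138, 131 and 138 CPM (2.59 (adjusted p 1.07e-19, SE 0.056)), and the processome protein NOL6, from 52.0, 51.7 and 53.2 CPM to 233, 234 and 236 CPM (2.16 (adjusted p 2.40e-18, SE 0.057)). RRP7A has a pseudogene of similar sequence, so its level is uncertain. NOP53, a large-subunit factor of the nucleolus, fell, from 249, 226 and 248 CPM to 128, 118 and 129 CPM (-0.95 (adjusted p 2.24e-08, SE 0.099)), and its parental change was -0.62. ZNHIT3 (-0.053), PIH1D1 (-0.036) and RCL1 (0.048) did not pass the threshold. At 24 h 83 were higher and 3 lower (NOP53, NOP9 and UTP25), with a median of 0.55, where 30.4% of all genes were called higher and 31.2% lower. At 48 h 21 were higher, a share near the 23.4% of all genes, and 33 were lower, where 20.7% of all genes were. At 0 h 83 of the 98 were lower in the MYC-ER line than in the parental line and 2, NOP53 and UTP25, were higher. Of all genes, 32.7% were called lower and 31.6% higher in that comparison.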

How the data were processed

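The authors deposited 1 table of raw, whole-number counts with a row per gene. The submitters' processing notes name Trimmomatic 0.39, STAR, StringTie 2.1.3b and GRCh38 without their roles. The annotation release, strand setting and treatment of reads with several matches are not given in the sources used here. If StringTie made the counts, they are estimates from coverage, and limits from counts are approximate. Genes were kept by filterByExpr (22158), and TMM factors and a model with 8 group means were fitted to the 24 libraries (edgeR 4.0.16, R 4.3.3). The test was the two-sided quasi-likelihood F test with Benjamini-Hochberg adjustment within each of 15 contrasts and a threshold of 0.05. The script was tested on simulated data. CPM uses TMM-scaled totals, except for markers and mitochondrial shares, which use plain totals. GC content and length came from GENCODE 29 and promoters from RefSeq GRCh38.p14.

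The members and lists were chosen with earlier results of these data known. Values in every library are given for the member with the largest and the smallest 8 h change in each role and for exceptions in call or direction, and other pathway genes by their counts, the 2 largest rises and the exceptions. Some further library values were chosen after they had been seen. Replicate numbers gave no clear pairing of the libraries, and the main model used none. Alternatives were DESeq2 1.42.0, other scalings and filters, a replicate block, GC and length trends, fewer groups and leaving out each library.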

Additional observations from a re-analysis of the deposited data

Results flagged for a closer look

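The change from 0 h differed between the lines by the interaction test of edgeR in the following results, given as the log2 change in MYC-ER cells less that in parental cells, with 3 libraries a group. At 8 h it was positive in 44 of 44 genes, from 0.49 for NPM1 to 3.28 for LYAR. At 24 h it was positive in 39, from 0.30 for UTP15 to 2.38 for EBNA1BP2. The value of UTP15 did not pass the threshold in the fits without MYC-ER 0 h replicate 1, MYC-ER 24 h replicate 1, parental 0 h replicate 2 or parental 24 h replicate 3 (0.22 to 0.28, adjusted p 0.0537 to 0.0654). At 48 h it was positive in 23, with FBL at 1.28, and negative in 12, with UTP20 at -0.92. UTP20 rose in parental cells and was below its 0 h level in MYC-ER cells at that time.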

How the results depend on the processing

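The 44 calls at 8 h in MYC-ER cells numbered 43 or 44 under each alternative, as did those of the interaction at 8 h. Over the 44 genes, 15 contrasts and all alternatives, 10714 of 11352 values kept their side of the threshold and, where called, their direction. A call was lost in 373, gained in 214, and 51 turned. A change of sign in a value called in neither fit was not counted as a turn. With library size alone the higher and lower counts were 23 and 4 for MYC-ER 48 h against 0 h, and 5 and 24 for 24 h against 8 h. Over all 22158 genes they were 7212 and 2557 in the first contrast, and 8595 and 4078 in the second. That scaling also gave 1 higher for 48 h against 24 h, 2 lower between the lines at 8 h, 4 higher between them at 48 h and 7 lower for the interaction at 48 h. The 2 higher genes of 24 h against 8 h became 4 with the upper quartile, with at least 10 counts in every library and with only the groups compared, and 1 with no filter on low counts or with GC and length trends removed. The upper quartile gave 1 higher for 48 h against 24 h, 12 lower for parental 8 h and 4 higher between the lines at 48 h, and only the groups compared gave 2 lower between them at 8 h.

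In the parental contrasts, the counts with the GC trend removed were 3 higher and 3 lower at 8 h, 8 lower at 24 h and 3 higher at 48 h. With GC and length trends removed they were 4 lower at 8 h, 4 higher and 6 lower at 24 h and 2 higher at 48 h. With only the groups compared they were 1 higher and 0 lower at 8 h, 5 lower at 24 h, and 3 higher and 9 lower at 48 h. Values named above that turned were WDR12 at MYC-ER 48 h (0.055) and NHP2 (0.18) and TSR1 (0.0012) from 8 to 24 h with library size alone. NOC3L at parental 24 h (-0.0093) and 48 h (-0.15) and DDX18 at parental 48 h (-0.054) turned with the GC trend removed, and NOC3L (-0.12) and DDX18 (-0.050) at 48 h with GC and length trends removed. The causes were not tested.

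Leaving out single libraries gave 1 to 2 members higher for 24 h against 8 h, and 2 to 17 members lower for parental 8 h. The 2 were without parental 0 h replicate 1, where 2551 of 22751 genes were lower. The 17 were without parental 0 h replicate 2, where 4480 of 22783 genes were lower. Same-numbered libraries of different groups had a median correlation of their deviations of -0.0125 over 84 pairs, from -0.365 to 0.551, with 18 over 0.1. Differently numbered libraries had a median of -0.00615 over 168 pairs, from -0.52 to 0.411, with 45 over 0.1. Of the 24 libraries, 9 lay closest to their own number. With the replicate block the counts were 44 higher at 8 h in MYC-ER cells, 15 higher and 11 lower at 48 h, and 22 positive and 11 negative for the interaction at 48 h. With 3 libraries a group, small parental changes rest on the spread pooled over 24 libraries. Lane effects were not tested, since the labels do not say which libraries shared a lane.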
